A study of Homo sapiens with 12 samples.

Results

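The genes described here are 10 genes that p53 activates and whose products promote apoptosis, out of 18417 genes measured in HEK293T cells. They are PMAIP1, BBC3, BAX, APAF1, TNFRSF10B, TP53INP1, TP53AIP1, PERP, PIDD1 and CYFIP2, looked up by symbol or older alias among the annotated array rows. No cut-off on their values was used, but the choice was made with earlier results of these data known. All 10 were found, each on 1 row of the array. RNA was taken as 12 samples, 3 in each of 4 groups that the labels call biological replicates, and each was hybridized to 1 Affymetrix Human Gene 1.0 ST array, which carries probes along the exons of each gene. HEK293T is a line from human embryonic kidney that makes the large T antigen of SV40, and this antigen binds and restrains p53. The control group (shCTRL) received a nontargeting shRNA plasmid, the UBE4B knockdown (shUBE4B) and the LSD1 knockdown (shLSD1) received shRNA plasmids against 1 of these genes, and the double knockdown (shUBE4B+shLSD1) received both. Every group was transfected with 4 µg DNA and lysed after 78 h. According to the methods the cells also carried a misfolding-prone mutant of SOD1, which the labels do not name.

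In the intrinsic pathway of apoptosis, BH3-only proteins such as NOXA (PMAIP1) and PUMA (BBC3) oppose the survival proteins of the BCL2 family, so that BAX and BAK1 permeabilize mitochondria, and released cytochrome c assembles APAF1 into the caspase-activating apoptosome. In the extrinsic pathway, ligand-bound receptors such as DR5 (TNFRSF10B) recruit FADD and caspase-8. p53 raises transcription of genes in both pathways. UBE4B is a ubiquitin ligase that promotes degradation of p53, and LSD1, encoded by KDM1A, is a demethylase that acts on histones and on p53.

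Of the purchased pRS-RFP-C plasmids that the labels name, the methods list 4 target sequences for UBE4B and 4 for LSD1, shown here because they are the agents that separate the groups. They are given in lower case from the supplementary methods, and the labels do not say which of them each dish received.
LSD1 shRNA target 45: agccacctgacagtaaggaatggctactc
LSD1 shRNA target 46: gatactgtgcttgtccaccgagttcacag
LSD1 shRNA target 47: ggatttggcaaccttaacaaggtggtgtt
LSD1 shRNA target 48: tcaaagatgagcagattgaacattggaag
UBE4B shRNA target 69: catttcaccattgaaacctgcaaagagac
UBE4B shRNA target 70: agagtcttggtctcaatgtccacaacatg
UBE4B shRNA target 71: taacgcctttcaccattaagaggaaagcg
UBE4B shRNA target 72: gcagtcagccagcttctgagcaacatccg
The targeted transcripts bore out the group labels. UBE4B measured 10.35 ± 0.064 (log2 signal, mean ± SD of 3 arrays) in control, 8.95 ± 0.10 in the UBE4B knockdown, 10.42 ± 0.036 in the LSD1 knockdown and 8.93 ± 0.18 in the double knockdown. KDM1A measured 10.90 ± 0.062, 10.95 ± 0.027, 9.64 ± 0.19 and 9.78 ± 0.17 in the same order. All 12 arrays had medians between 7.00 and 7.06. Among markers of HEK293T cells, INA (10.60), NEFL (9.48), LIN28B (9.58) and NEFM (8.01) were above the array medians, and PAX2 (7.09) was near them, as a rough guide, since probes differ in brightness. Of 6 markers of colon epithelium, the origin of another line in the study, VIL1 (5.93), KRT20 (5.60), CDH17 (4.69), LGALS4 (6.62) and EPCAM (6.27) were below the array medians and CDX2 (9.32) was above.

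Of the 10 proapoptotic genes, 3 changed in the UBE4B knockdown and the same 3 in the double knockdown. PMAIP1 and TP53INP1 fell to between 70.3% and 75.9% of the control signal, and CYFIP2 rose by 1.24-fold to 1.27-fold. In the LSD1 knockdown, 0 of the 10 passed the test, and 2 had an unadjusted p under 0.05, beside 2465 of all 18417 genes. The t-test that the methods name, adjusted in the same way, called 0 of the 10 in each of the 3 comparisons with control. It called 46, 1 and 48 of all 18417 genes in the UBE4B, LSD1 and double knockdown. Calls here are limma adjusted p-values under 0.05 over all 18417 genes, a rule that called 10.1% of all genes in the UBE4B knockdown, 0.820% in the LSD1 knockdown and 7.56% in the double knockdown. BBC3, BAX, APAF1, TNFRSF10B, PERP, PIDD1 and TP53AIP1 passed in none of the comparisons of one group with another. The median change of the 10 genes was -0.040 on the log2 scale in the UBE4B knockdown, -0.015 in the LSD1 knockdown and -0.050 in the double knockdown, beside -0.026, -0.0084 and -0.0095 over all genes. The 3 comparisons share the control arrays. The SD within groups, pooled over the 4 groups, was 0.057 to 0.16 among the 10 genes, beside a median of 0.10 over all genes.

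**Figure D1:**
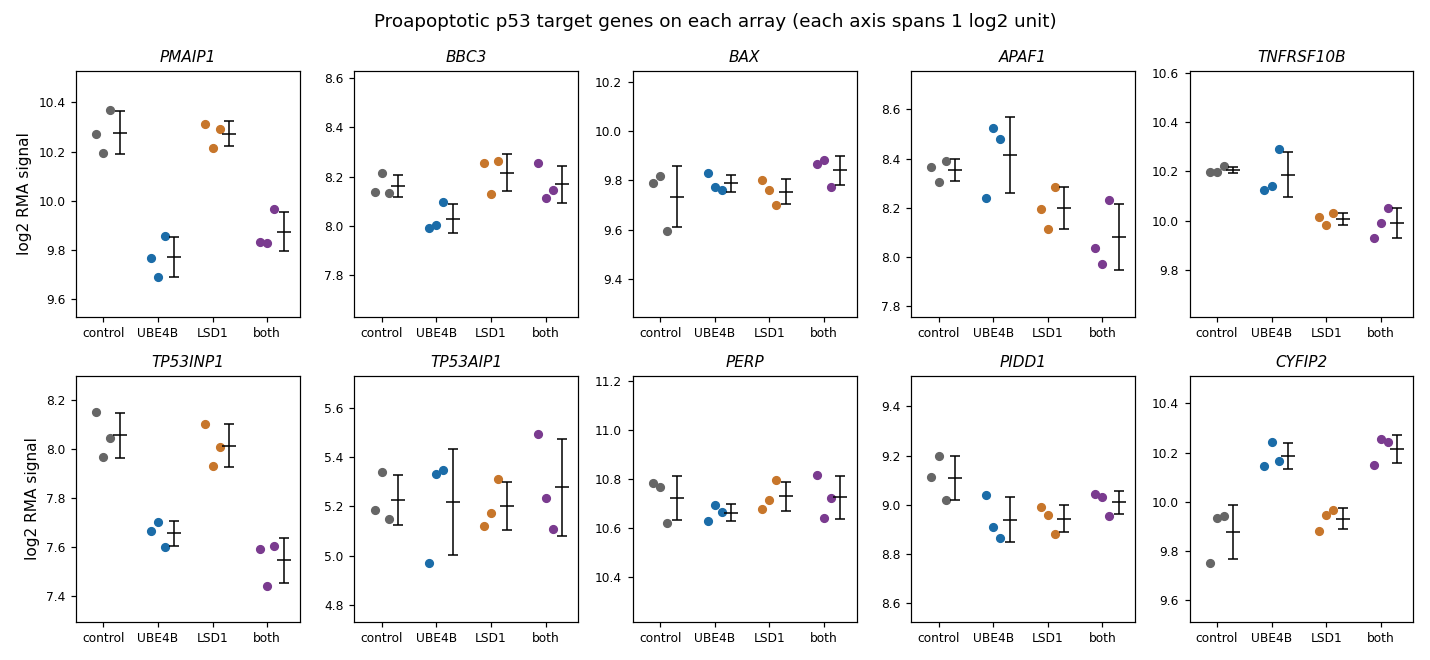
Log2 RMA signal (vertical axis, 1 log2 unit in every panel) of the 10 genes on each of the 12 arrays, by shRNA group, with the mean and SD of the 3 arrays of a group beside the points. PMAIP1 and TP53INP1 sit lower, and CYFIP2 higher, on all 6 arrays with UBE4B shRNAs than on the 6 without. The share of all genes with such a separation was not counted.

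PMAIP1, which encodes the BH3-only protein NOXA that neutralizes MCL1, fell with UBE4B shRNAs. It measured 10.27, 10.19 and 10.37 on the control arrays, 9.77, 9.69 and 9.85 with UBE4B shRNAs, 10.31, 10.21 and 10.29 with LSD1 shRNAs, and 9.83, 9.83 and 9.97 with both. The arrays with UBE4B shRNAs did not overlap with the others, while control and LSD1 knockdown arrays covered the same range. The share of all genes whose arrays with and without a set of shRNAs separate fully was not counted, here or for the genes below. The UBE4B knockdown left 70.4% of the control signal, a log2 change of -0.51 (SE 0.070, 95% interval -0.66 to -0.36, limma adjusted p = 0.00107). The double knockdown left 75.6%, with a log2 change of -0.40 (95% interval -0.55 to -0.25, limma adjusted p = 0.00347). With LSD1 shRNAs alone the change was -0.0048 (95% interval -0.16 to 0.15, limma adjusted p = 0.985). Because the RNA came from whole dishes, fewer cells with a transcript and less transcript per cell cannot be told apart, here or for the genes below.

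BBC3, which encodes PUMA, a BH3-only protein that binds all survival members of the BCL2 family, did not pass the test. It measured 8.14, 8.21 and 8.13 on the control arrays, 7.99, 8.00 and 8.10 with UBE4B shRNAs, 8.25, 8.13 and 8.26 with LSD1 shRNAs, and 8.25, 8.11 and 8.14 with both. The UBE4B knockdown arrays lay below all control arrays, and the double knockdown arrays overlapped with control. The log2 change was -0.13 (95% interval -0.27 to 0.0077, limma adjusted p = 0.206) in the UBE4B knockdown and 0.0091 (95% interval -0.13 to 0.15) in the double knockdown. The intervals for BBC3 and PMAIP1, the pair of BH3-only genes, did not overlap in either of these comparisons, and the difference between the genes was not tested.

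BAX, the effector that forms pores in the mitochondrial outer membrane, ranged from 9.59 to 9.88 over the 12 arrays, and every knockdown group overlapped with control. Its log2 change was 0.054 (95% interval -0.095 to 0.20) in the UBE4B knockdown, 0.020 (-0.13 to 0.17) in the LSD1 knockdown and 0.11 (-0.043 to 0.26) in the double knockdown. The highest value, 9.88, was on a double knockdown array and the lowest, 9.59, on a control array.

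APAF1, the scaffold of the apoptosome, was lowest where both sets of shRNAs were present. It measured 8.37, 8.30 and 8.39 on the control arrays, 8.24, 8.52 and 8.48 with UBE4B shRNAs, 8.19, 8.11 and 8.29 with LSD1 shRNAs, and 8.04, 7.97 and 8.23 with both. All arrays with LSD1 shRNAs were below all control arrays, and the UBE4B knockdown arrays spanned the control range. The double knockdown had 82.8% of the control signal, a log2 change of -0.27 (95% interval -0.46 to -0.083, unadjusted p = 0.00822), which missed the threshold after adjustment (limma adjusted p = 0.0790). Without double knockdown replicate 3 the change was -0.35 and passed (limma adjusted p = 0.0460). Of the 23 alternatives run for the double knockdown, 3 called APAF1 and 20 did not.

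TNFRSF10B, the death receptor DR5 for the ligand TRAIL, had the smallest spread within groups of the 10 genes. It measured 10.20, 10.20 and 10.22 on the control arrays, 10.13, 10.14 and 10.29 with UBE4B shRNAs, 10.01, 9.98 and 10.03 with LSD1 shRNAs, and 9.93, 9.99 and 10.05 with both. Every array with LSD1 shRNAs was below every array without them. The log2 change was -0.20 in the LSD1 knockdown (95% interval -0.33 to -0.065, unadjusted p = 0.00678, limma adjusted p = 0.165) and -0.22 in the double knockdown (95% interval -0.35 to -0.083, limma adjusted p = 0.0505), so neither passed. Leaving out UBE4B knockdown replicate 3, the highest array of its group, moved the latter adjusted p to 0.0431 with the change still at -0.22. Of the 23 alternatives run for the double knockdown, 4 called TNFRSF10B and 19 did not.

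PIDD1, the scaffold of the PIDDosome that activates caspase-2, measured 9.11, 9.20 and 9.02 on the control arrays, 9.04, 8.91 and 8.87 with UBE4B shRNAs, 8.99, 8.96 and 8.88 with LSD1 shRNAs, and 9.04, 9.03 and 8.96 with both. Only the LSD1 knockdown arrays lay entirely below control. Its log2 change was -0.17 in both single knockdowns (limma adjusted p = 0.127 with UBE4B shRNAs and 0.304 with LSD1 shRNAs) and -0.10 in the double knockdown, none of them past the threshold.

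TP53INP1, a stress-induced nuclear protein that promotes p53 activity and autophagy, fell together with PMAIP1. It measured 8.15, 7.97 and 8.05 on the control arrays, 7.67, 7.70 and 7.60 with UBE4B shRNAs, 8.10, 7.93 and 8.01 with LSD1 shRNAs, and 7.59, 7.44 and 7.61 with both. Again the 6 arrays with UBE4B shRNAs lay below the 6 without. The log2 change was -0.40 (SE 0.072, 95% interval -0.55 to -0.24, limma adjusted p = 0.00516) in the UBE4B knockdown, or 75.9% of the control signal. In the double knockdown it was -0.51 (95% interval -0.66 to -0.35, limma adjusted p = 0.00102), or 70.3%, and in the LSD1 knockdown -0.041 (95% interval -0.20 to 0.12, limma adjusted p = 0.868). Over all 12 arrays TP53INP1 spanned 0.71 log2 units, the widest range of the 10 genes, followed by PMAIP1 with 0.68.

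TP53AIP1, a mitochondrial protein induced after p53 phosphorylation, was dim, between 4.97 and 5.49 on all 12 arrays, where the array medians were at least 7.00. Its spread within groups (pooled SD 0.16) was the largest of the 10 genes, and its changes against control were -0.0089, -0.025 and 0.051 in the UBE4B, LSD1 and double knockdown. The 95% intervals of these changes were -0.26 to 0.24, -0.27 to 0.22 and -0.20 to 0.30. Changes within such limits could not be told from the spread, and whether the dim signal hid a larger one was not tested. PERP, a desmosome-associated membrane protein, had the narrowest range, from 10.62 to 10.82. Its log2 change was -0.061 (95% interval -0.21 to 0.084), 0.0052 (-0.14 to 0.15) and 0.0014 (-0.14 to 0.15) in the same order, and its groups overlapped throughout.

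CYFIP2, a subunit of the WAVE regulatory complex that steers actin assembly and a p53 target in apoptotic cells, was the one gene of the 10 that rose. It measured 9.75, 9.94 and 9.94 on the control arrays, 10.15, 10.24 and 10.17 with UBE4B shRNAs, 9.88, 9.95 and 9.96 with LSD1 shRNAs, and 10.15, 10.25 and 10.24 with both. No array with UBE4B shRNAs overlapped with an array without them, and control replicate 1 was the lowest of all. The log2 change was 0.31 (SE 0.067, 95% interval 0.17 to 0.45, limma adjusted p = 0.0121) in the UBE4B knockdown, 0.34 (95% interval 0.20 to 0.49, limma adjusted p = 0.00761) in the double knockdown and 0.055 (95% interval -0.089 to 0.20, limma adjusted p = 0.792) in the LSD1 knockdown. Without UBE4B knockdown replicate 2 the first of these was 0.28 and missed the threshold (limma adjusted p = 0.0575). On the 6 arrays of each comparison alone, limma gave adjusted p = 0.0626 for the UBE4B knockdown and 0.0774 for the double knockdown, so these calls rest on the spread pooled over the 4 groups.

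**Figure D2:**
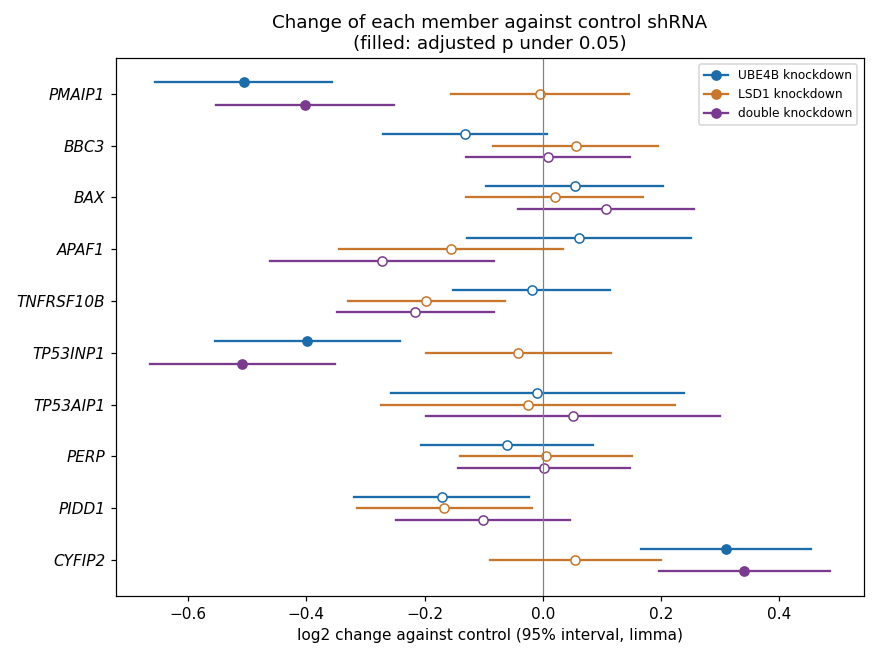
Log2 change against control (horizontal axis) of the 10 genes in the UBE4B, LSD1 and double knockdown, with 95% intervals from limma and filled points for an adjusted p under 0.05. The filled points are those of PMAIP1, TP53INP1 and CYFIP2 in the UBE4B and double knockdown.

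A weaker criterion was that all 3 arrays of a knockdown lay beyond all 3 control arrays. In the UBE4B knockdown 1 of the 10 genes was higher and 3 were lower, where 30.3% of all genes met it in either direction (2612 higher, 2970 lower). In the LSD1 knockdown 0 were higher and 3 lower (APAF1, TNFRSF10B and PIDD1), against 16.6% of all genes (1571 higher, 1493 lower). In the double knockdown 1 was higher and 4 lower, against 21.9% (1956 higher, 2080 lower). The thresholds that the methods give for pathway analysis, at least 1.2-fold and an unadjusted p under 0.05, were met with limma by 3, 0 and 4 of the 10 genes in the UBE4B, LSD1 and double knockdown, beside 12.5%, 4.21% and 9.20% of all genes. With the methods' t-test at those thresholds, 3 of the 10 genes passed in the UBE4B knockdown, where 8.49% of all genes did, 0 in the LSD1 knockdown (2.63%) and 4 in the double knockdown (6.58%), where APAF1 joined PMAIP1, TP53INP1 and CYFIP2. After Benjamini-Hochberg adjustment that t-test called 0 of the 10 in each comparison with control, while it called 46, 1 and 48 of all genes, or 0.250%, 0.00543% and 0.261%.

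To ask whether the second set of shRNAs added to the first, the double knockdown was compared with each single knockdown. Against the UBE4B knockdown 0 of the 10 genes passed limma's adjusted p, where 0.147% of all genes did. An unadjusted p under 0.05 was found for 2401 of all 18417 genes and for 3 of the 10. These were APAF1, with a log2 change of -0.33 (95% interval -0.52 to -0.15, limma adjusted p = 0.166), TNFRSF10B, with -0.20 (95% interval -0.33 to -0.064, limma adjusted p = 0.223), and BBC3, with 0.14 (95% interval 0.0015 to 0.28, limma adjusted p = 0.378). For PMAIP1 the difference was 0.10 (95% interval -0.047 to 0.25), for TP53INP1 -0.11 (-0.27 to 0.046) and for CYFIP2 0.031 (-0.11 to 0.18). Against the LSD1 knockdown, where 2.79% of all genes passed, PMAIP1 (-0.40, limma adjusted p = 0.00975), TP53INP1 (-0.47, limma adjusted p = 0.00444) and CYFIP2 (0.29, limma adjusted p = 0.0401) passed. The call of CYFIP2 in that comparison was lost in 9 of 12 fits that left out 1 array, with adjusted p up to 0.148, and that of PMAIP1 without LSD1 knockdown replicate 3 (limma adjusted p = 0.0501).

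The interaction term, which asks whether the double knockdown differs from the sum of the single knockdowns on the log2 scale, passed for 0 of the 10 genes and for 0% of all genes. An unadjusted p under 0.05 was found for 2411 of all 18417 genes. Among the 10 it was found for 1, PIDD1 with 0.24 (95% interval 0.028 to 0.45, unadjusted p = 0.0294, limma adjusted p = 0.340). For PMAIP1 the term was 0.11 (95% interval -0.10 to 0.32), for TP53INP1 -0.069 (-0.29 to 0.15), for TNFRSF10B 0.00070 (-0.19 to 0.19) and for APAF1 -0.18 (-0.45 to 0.088).

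Each set of shRNAs was also averaged over the presence and absence of the other, 6 arrays against 6, a comparison added after the values were known. An interaction term that does not pass does not show that the effects add, so the averages describe these arrays only. UBE4B shRNAs lowered PMAIP1 by a log2 change of -0.45 (95% interval -0.56 to -0.35, limma adjusted p = 9.00e-05) and TP53INP1 by one of -0.43 (-0.54 to -0.32, limma adjusted p = 0.000171), and raised CYFIP2 by 0.30 (0.20 to 0.40, limma adjusted p = 0.00129). These 3 of the 10 genes stood beside 12.3% of all genes, and their calls held in each of the 21 alternatives run. The methods' t-test and limma on 6 arrays were not among these alternatives. With LSD1 shRNAs averaged in the same way, TNFRSF10B had a log2 change of -0.20 (95% interval -0.29 to -0.10, limma adjusted p = 0.0411) and APAF1 one of -0.24 (-0.38 to -0.11, limma adjusted p = 0.0756), where 1.48% of all genes passed. The call of TNFRSF10B was lost in 11 of 12 fits that left out 1 array, with adjusted p up to 0.112 and changes from -0.21 to -0.17, so it sits at the threshold. For APAF1 the fit without UBE4B knockdown replicate 1 passed (limma adjusted p = 0.0492). The log2 change of APAF1 with LSD1 shRNAs was -0.16 without UBE4B shRNAs and -0.33 with them.

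**Figure D3:**
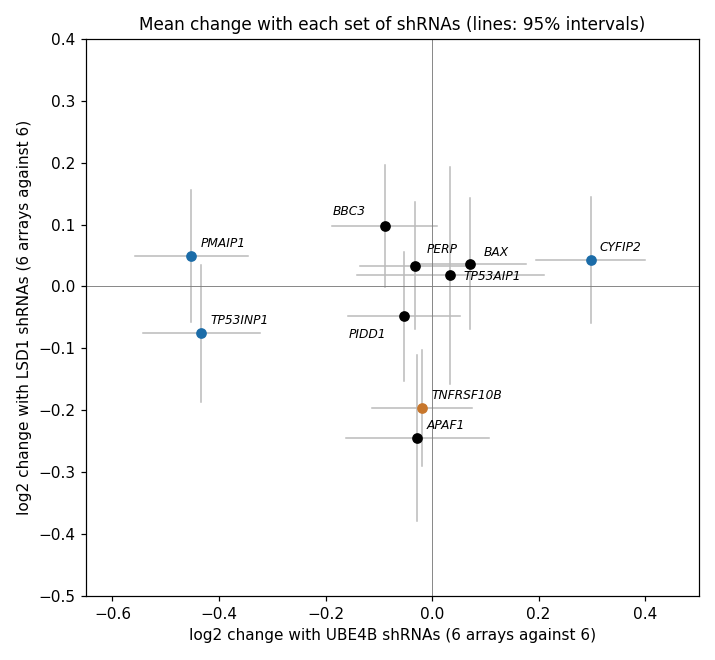
Mean log2 change of the 10 genes with UBE4B shRNAs (horizontal axis) and with LSD1 shRNAs (vertical axis), each 6 arrays against 6, with 95% intervals. PMAIP1, TP53INP1 and CYFIP2 lie away from 0 along the UBE4B axis, and TNFRSF10B and APAF1 along the LSD1 axis.

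The direct comparison of the single knockdowns tests the difference between their effects, since the control cancels. In it 3 of the 10 genes passed, against 5.46% of all genes. PMAIP1 was lower in the UBE4B knockdown by a log2 difference of -0.50 (95% interval -0.65 to -0.35, limma adjusted p = 0.00153), TP53INP1 by one of -0.36 (-0.51 to -0.20, limma adjusted p = 0.0136), and CYFIP2 was higher by 0.25 (0.11 to 0.40, limma adjusted p = 0.0432). TNFRSF10B was 0.18 higher in the UBE4B than in the LSD1 knockdown (0.046 to 0.31, limma adjusted p = 0.117) and did not pass. The call of CYFIP2 was lost in 9 of 12 fits that left out 1 array (adjusted p up to 0.160), and that of TP53INP1 without UBE4B knockdown replicate 3, LSD1 knockdown replicate 1 or LSD1 knockdown replicate 3 (adjusted p from 0.0508 to 0.0647).

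Around the 10 genes, 63 other genes of these pathways were listed, of which 53 were measured on rows with 1 symbol. With UBE4B shRNAs alone 5 of them rose while 6 fell, where 10.1% of all genes passed limma's adjusted p. With both sets 4 rose while 4 fell, where 7.56% of all genes passed. With LSD1 shRNAs alone 0 passed, where 0.820% of all genes did. In that knockdown 10 had an unadjusted p under 0.05, beside 2465 of all 18417 genes. Some genes stand in several of the lists below. Median log2 changes of these 53 genes were 0.025 for the UBE4B knockdown and 0.021 for the double. Left out singly, control replicate 2, any UBE4B knockdown replicate, LSD1 knockdown replicate 2 or double knockdown replicate 1 brought the 11 calls of the UBE4B knockdown down to between 5 and 7, and the last of these the 8 of the double knockdown to 5.

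Among 14 measured p53-activated apoptosis genes beyond the 10, 2 rose with 2 falling in the UBE4B knockdown, and 2 rose in the double. Of all genes, 10.1% and 7.56% passed in these knockdowns. FAS, the receptor for FAS ligand, measured 6.23, 6.11 and 6.36 on the control arrays, 7.29, 7.13 and 7.33 with UBE4B shRNAs, 6.38, 6.73 and 6.76 with LSD1 shRNAs, and 7.15, 7.22 and 7.50 with both. It was thus 2.03-fold (log2 change 1.02, limma adjusted p = 0.000320) and 2.08-fold (log2 change 1.06, limma adjusted p = 0.000152) higher than control with UBE4B shRNAs, and its change in the LSD1 knockdown was 0.39 (limma adjusted p = 0.140). TP53I3, a quinone oxidoreductase linked to oxidative stress, rose by 0.28 and 0.29 on the log2 scale (limma adjusted p = 0.0142 and 0.0134). TNFRSF10D, a decoy receptor for TRAIL, fell by 0.23 (limma adjusted p = 0.0446) and EI24, a membrane protein of the endoplasmic reticulum, by 0.21 (limma adjusted p = 0.0430) in the UBE4B knockdown. In the double knockdown these last 2 had changes of -0.059 and -0.17 and did not pass.

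In the BCL2 family, 13 genes were measured, and 1 fell in each of the UBE4B and the double knockdown. For this and the next 2 lists the shares of all genes that passed were 10.1% and 7.56%. BOK, a relative of BAX, had a log2 change of -0.30 in the UBE4B knockdown (limma adjusted p = 0.0310) and -0.11 in the double knockdown (limma adjusted p = 0.475). BAK1, the effector that acts beside BAX, had -0.22 (limma adjusted p = 0.0541) and -0.25 (limma adjusted p = 0.0372). Of 12 measured genes of the apoptosome, the caspases and their inhibitors, BIRC6, a large inhibitor of apoptosis, rose by 0.21 in the UBE4B knockdown (limma adjusted p = 0.0443). In the double knockdown 0 passed and 2 had an unadjusted p under 0.05, beside 3818 of all 18417 genes. Of 10 measured partners of death receptors and of the PIDDosome, TNFRSF10D and FADD fell in the UBE4B knockdown and FADD in the double knockdown. FADD, the adaptor that links death receptors to caspase-8, had log2 changes of -0.29 (limma adjusted p = 0.0122), -0.25 (limma adjusted p = 0.0883) and -0.27 (limma adjusted p = 0.0218) in the UBE4B, LSD1 and double knockdown.

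**Figure D4:**
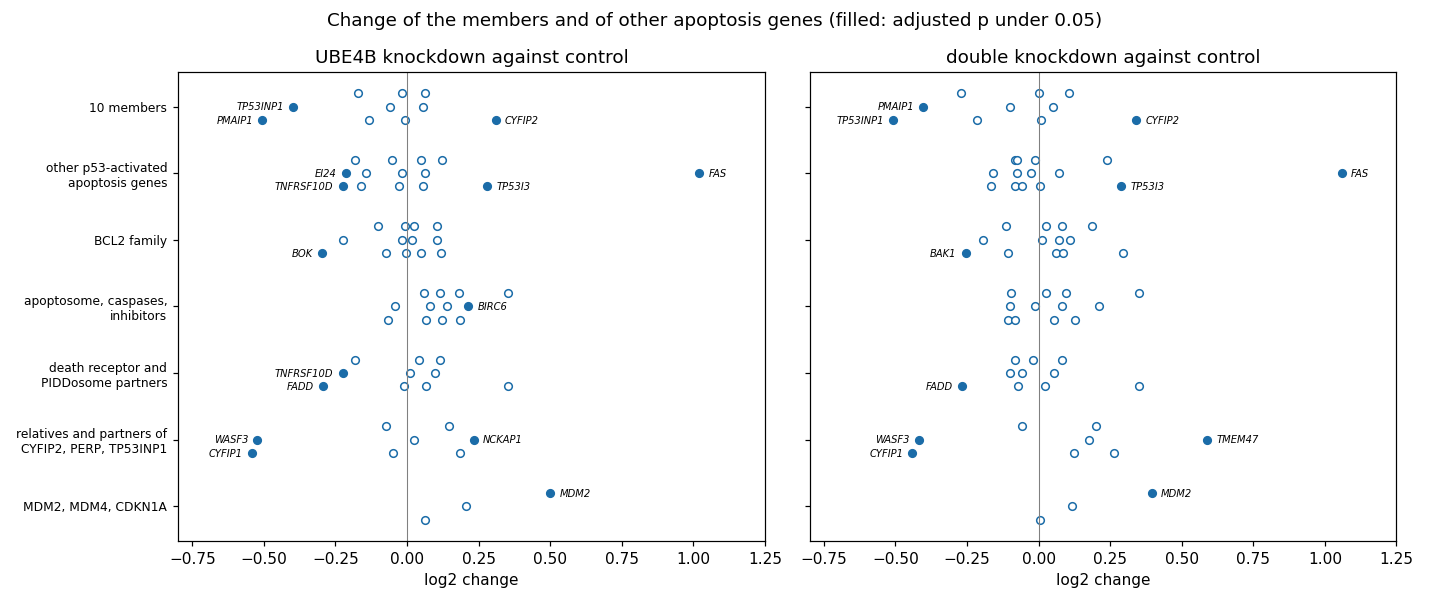
Log2 change against control (horizontal axis) in the UBE4B knockdown (left) and the double knockdown (right) of the 10 genes, labelled as members, and of the lists of other genes (vertical axis), with filled, named points for a limma adjusted p under 0.05. FAS stands highest in both panels, at 1.02 and 1.06, and most points lie near 0.

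The relatives and complex partners of CYFIP2, PERP and TP53INP1 had 8 measured genes. In each of the UBE4B and the double knockdown 3 passed, beside 10.1% and 7.56% of all genes. CYFIP1 and WASF3 fell in both the UBE4B and the double knockdown, while NCKAP1 passed as higher in the UBE4B and TMEM47 in the double knockdown. CYFIP1, the paralog of CYFIP2 that takes the same place in the WAVE complex, measured 9.20, 9.21 and 9.21 on the control arrays, 8.57, 8.75 and 8.67 with UBE4B shRNAs, 9.04, 9.28 and 9.25 with LSD1 shRNAs, and 8.64, 8.90 and 8.76 with both. Its log2 change of -0.54 (SE 0.082, limma adjusted p = 0.00187) in the UBE4B knockdown and -0.44 (limma adjusted p = 0.00548) in the double knockdown ran opposite to that of CYFIP2. WASF3, a WAVE protein of the complex, measured 10.37, 10.43 and 10.40 on the control arrays, 9.90, 9.80 and 9.93 with UBE4B shRNAs, 10.27, 10.25 and 10.30 with LSD1 shRNAs, and 9.94, 10.01 and 9.99 with both. It fell by 0.52 (limma adjusted p = 0.000235) and 0.42 (limma adjusted p = 0.000658), with no overlap between arrays with and without UBE4B shRNAs for either CYFIP1 or WASF3. NCKAP1, another subunit, rose by 0.23 in the UBE4B knockdown (limma adjusted p = 0.0469), and its change of 0.18 in the double knockdown did not pass (limma adjusted p = 0.146). TMEM47, a relative of PERP at cell junctions, rose by 0.59 in the double knockdown (limma adjusted p = 0.000890), while its changes of 0.19 and 0.29 in the UBE4B and the LSD1 knockdown did not pass.

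**Figure D5:**
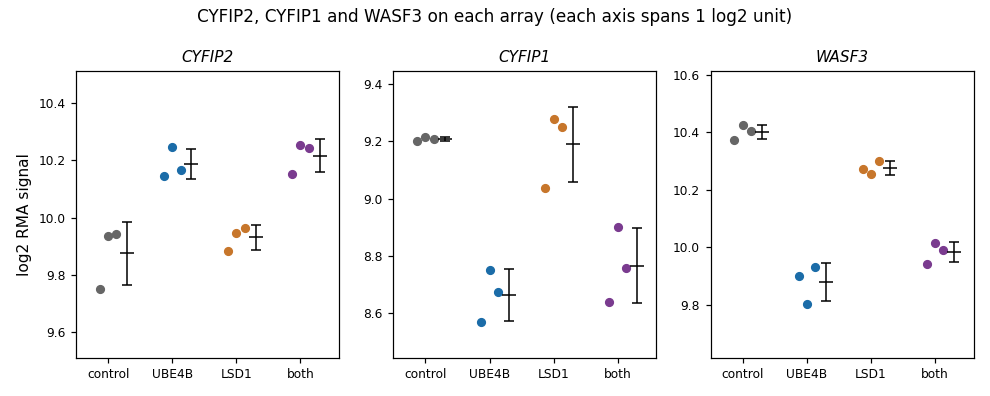
Log2 RMA signal (vertical axis, 1 log2 unit in every panel) of CYFIP2, CYFIP1 and WASF3 on each of the 12 arrays, by shRNA group, with the mean and SD of the 3 arrays of a group. On the 6 arrays with UBE4B shRNAs CYFIP2 was higher and CYFIP1 and WASF3 were lower than on the 6 without. The share of all genes with such a separation was not counted.

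Of the genes of p53 feedback, MDM2, the ubiquitin ligase that p53 induces and that degrades it, rose. It measured 10.98, 10.66 and 11.01 on the control arrays, 11.42, 11.42 and 11.31 with UBE4B shRNAs, 10.88, 10.83 and 10.90 with LSD1 shRNAs, and 11.32, 11.18 and 11.33 with both. The log2 change was 0.50 (limma adjusted p = 0.00407) in the UBE4B knockdown and 0.39 (limma adjusted p = 0.0149) in the double knockdown, so PMAIP1 and TP53INP1 fell on the arrays on which FAS and MDM2 rose. MDM4, the relative that masks the activation domain of p53, had 0.21 (limma adjusted p = 0.174) and 0.0042 (limma adjusted p = 0.991), and CDKN1A, the cell cycle inhibitor p21, had 0.064 (limma adjusted p = 0.687) and 0.12 (limma adjusted p = 0.536).

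As a description over the same 12 arrays, the Pearson correlation of PMAIP1 with TP53INP1 was 0.89, of PMAIP1 with CYFIP2 -0.88 and of TP53INP1 with CYFIP2 -0.94. The points share their groups, and for each of these genes the 6 arrays with UBE4B shRNAs were apart from the 6 without. The 3 genes most alike to PMAIP1 were MICA (r = 0.96), a stress ligand of natural killer cell receptors, MAFG (0.96), a small MAF transcription factor, and UGP2 (0.96), which makes UDP-glucose. For TP53INP1 they were VPS25 (0.97), a subunit of an endosomal sorting complex, RAD51AP1 (0.96), which acts in DNA repair, and RFC3 (0.96), a subunit of the clamp loader of DNA replication. For CYFIP2 they were ACY1 (0.95), an aminoacylase, MFSD6 (0.95), a membrane transporter family protein, and PTPDC1 (0.95), a protein phosphatase.

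Because p53 activates these genes through DNA sites, their promoters were read for the p53 half-site, the consensus decamer of purines, a core and pyrimidines, on both strands. RefSeq windows of 300 bases on assembly GRCh38.p14, from 250 before to 50 after a transcription start, were found for 8 of the 10 genes, 10 windows in all. TNFRSF10B and TP53INP1 had no window, so their promoters were not read. An exact half-site was in 0 of the 10 windows, and in 6.63% of 35116 windows of all genes. A half-site with up to 1 mismatch outside the C and G of the core was in 6 of the 10 windows, of PMAIP1, BBC3, CYFIP2 and TP53AIP1, and in 45.1% of all windows. The 250 bases before the starts of PMAIP1 and CYFIP2 are shown because these genes moved in opposite directions, with each such match in capitals, 185 bases before the start of PMAIP1 and 183 and 27 bases before the starts of CYFIP2.
PMAIP1 (chr18:59899746-59899995, plus strand): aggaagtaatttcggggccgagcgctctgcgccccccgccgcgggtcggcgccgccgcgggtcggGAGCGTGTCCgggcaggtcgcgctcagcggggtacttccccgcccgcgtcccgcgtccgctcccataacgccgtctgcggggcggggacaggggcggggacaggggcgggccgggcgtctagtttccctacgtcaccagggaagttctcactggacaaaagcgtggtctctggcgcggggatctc
CYFIP2, first start (chr5:157265873-157266122, plus strand): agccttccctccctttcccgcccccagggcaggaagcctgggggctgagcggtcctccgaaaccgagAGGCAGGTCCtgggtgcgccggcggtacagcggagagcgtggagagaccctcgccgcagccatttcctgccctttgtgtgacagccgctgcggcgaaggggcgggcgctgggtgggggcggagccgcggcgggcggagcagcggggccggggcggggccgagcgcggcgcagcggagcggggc
CYFIP2, second start (chr5:157269074-157269323, plus strand): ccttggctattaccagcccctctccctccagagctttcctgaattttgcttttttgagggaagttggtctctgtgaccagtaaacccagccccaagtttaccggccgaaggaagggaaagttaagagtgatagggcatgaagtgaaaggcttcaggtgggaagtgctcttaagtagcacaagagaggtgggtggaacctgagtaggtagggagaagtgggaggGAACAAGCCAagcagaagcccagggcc
A match is a match of letters in this window, and p53 binding was not measured on these arrays.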

How the data were processed

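Total RNA of 12 HEK293T samples in 4 shRNA groups was hybridized by the authors to Affymetrix Human Gene 1.0 ST arrays. The deposited values are log2 signals that the authors made by RMA in Partek (versions not given), which corrects background, forces one distribution on all arrays and summarizes probes per transcript cluster, with annotation on hg19. A change shared by most transcripts is removed by that step. For labelling, the labels name the Ambion WT Expression kit and the supplementary methods a 3' IVT Express kit, and which was used is not settled here. It bears on how evenly the probes along a transcript were covered. The sources do not say whether the replicates came from separate transfections, so p-values measure the spread between these samples, and the number of arrays limits the precision.

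Symbols were updated through a RefSeq table (GRCh38.p14). Of 33297 rows, 19460 had 1 symbol, 1754 several and 12083 none, and 31 symbols were not updated. The brightest row stood for a gene, which gave 18417 genes. The comparisons used limma 3.58.1 under R 4.3.3 (lmFit, eBayes, 4 group means, no block, 8 residual and 5.13 prior degrees of freedom), two-sided, Benjamini-Hochberg adjusted over all genes, called at adjusted p under 0.05. The procedure was run on simulated data with independent noise on each array. That run does not bear on any pairing of same-numbered arrays. The genes, the lists and the rule for naming genes were chosen with earlier results of these data known. Named were the 10 genes, up to 4 called genes per list by largest change, all measured genes of p53 feedback, and the 3 genes most correlated with each called gene. Of the listed genes 10 were not analysed here, among them TNFRSF10C and BCL2L2 (rows with several symbols), BIRC3, RIPK1, WASF1, ABI2 and PMP22. Alternatives were each array left out, a replicate block, trend and robust eBayes, array weights, limma on 6 arrays, further quantile normalization, median centring, the mean of a gene's rows, all transcript clusters in place of genes, the methods' t-test, leaving out the 40% dimmest genes, and a 1.2-fold change with an unadjusted p under 0.05. Figures used Python 3.11.15, pandas 2.3.3, NumPy 2.4.6 and matplotlib 3.10.9.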

Additional observations from a re-analysis of the deposited data

Results flagged for a closer look

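The effects of the 2 single knockdowns differed for 3 of the 10 genes by a test of the difference itself. The log2 change with UBE4B shRNAs minus that with LSD1 shRNAs was -0.50 for PMAIP1 (limma adjusted p = 0.00153), -0.36 for TP53INP1 (limma adjusted p = 0.0136) and 0.25 for CYFIP2 (limma adjusted p = 0.0432). In this comparison 5.46% of all genes passed. The call of CYFIP2 was lost in 9 of 12 fits that left out 1 array, and that of TP53INP1 in 3.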

How the results depend on the processing

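No change of the 10 genes that had been called reversed its direction under any alternative run. Counts of the 10 genes called stayed at 3 in all 21 alternatives for UBE4B shRNAs over both LSD1 states, at 0 in all 23 for the LSD1 knockdown against control and at 0 in all 21 for the interaction. Leaving out 1 array gave 2 to 3 calls for the UBE4B knockdown against control (3), 3 to 4 for the double knockdown against control (3), 0 for the double against the UBE4B knockdown (0), 1 to 3 for the double against the LSD1 knockdown (3), 1 to 3 for the UBE4B against the LSD1 knockdown (3), and 0 to 1 for LSD1 shRNAs over both UBE4B states (1). The methods' t-test after Benjamini-Hochberg adjustment gave 0 calls for the UBE4B knockdown, 0 for the double knockdown, 0 for the double against the LSD1 knockdown and 1 for the UBE4B against the LSD1 knockdown. Without the 40% dimmest genes, where TP53AIP1 has no value, the double knockdown had 5 calls (1 higher, 4 lower) and LSD1 shRNAs over both states 2. Array weights gave 5 calls (2 higher, 3 lower) for the UBE4B against the LSD1 knockdown. The 1.2-fold rule gave 1 call for the double against the UBE4B knockdown, APAF1, and 0 for LSD1 shRNAs over both states, which had 2 with trend and robust eBayes, 0 after further quantile normalization and 0 on all transcript clusters. Causes of these shifts were not tested.

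Of the 53 other pathway genes, leaving out 1 array gave 5 to 11 calls in the UBE4B knockdown (11) and 5 to 10 in the double knockdown (8). On 6 arrays limma gave 5 and 4, the methods' t-test 1 and 1, and all transcript clusters 6 in the UBE4B knockdown. In the LSD1 knockdown (0) there was 1 call with the replicate block, 2 with trend and robust eBayes, 1 without the 40% dimmest genes and 3 with the 1.2-fold rule.

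The replicate numbers are shared between groups. Deviations of same-numbered arrays from their group means correlated between -0.080 and 0.33, 10 of 18 pairs above 0.1, and 8 of 12 arrays correlated best with an array of their own number, a hint from the data that they pair. Since the labels do not say that a number marks a shared batch and not every pair was above 0.1, the numbers were not taken as pairs. With the replicate block, 3 of the 10 genes passed in the UBE4B knockdown, 0 in the LSD1 knockdown and 4 in the double knockdown, where TNFRSF10B was added (limma adjusted p = 0.0311). The block left the other counts of the 10 genes at 0 for the double against the UBE4B knockdown, 3 for each of the other comparisons between knockdowns, and 0 for the interaction.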
